A study of Mus musculus with 6 samples.

Results

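The genes described here are those of the red blood cell: Slc4a1, which encodes the anion exchanger of the red cell membrane, the alpha globin genes Hba-a1 and Hba-a2, the haem synthesis gene Alas2, the membrane gene Rhag, and the transcription factor genes Klf1 and Gata1. They were taken by symbol from the counts of each library. Of 8 genes named in the list, 7 were found among the 43472 gene symbols, and 1 was not analysed here. The question was how the level of each gene in mutant intervertebral discs (IVDs) compared with controls, and how Slc4a1 compared with the other genes of the same cell type. The study picked Slc4a1 out from these same libraries, so its test is not independent evidence.

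The series holds 6 RNA-seq libraries of whole IVDs from mice of strain C57B6/J at postnatal day 20, 3 from Col2Cre;Adgrg6 f/f mutants and 3 from controls, each from pooled tissue of 2 to 3 mice. The discs were taken from T8 to L5, frozen and pulverized, and poly(A) RNA was sequenced. Both alleles of Adgrg6 are floxed in the mutants, and Col2Cre, driven by the promoter of a cartilage collagen gene, recombines them throughout the IVD and also in periosteum and vertebral trabecular bone. Red blood cells and their precursors are not of the Col2 lineage. Controls are called wild type in the genotype labels and Col2Cre controls in the sample titles, while the study describes Cre (-) littermates, and no sex is given. Each library had between 9061491 and 12017008 counts on genes. Expression is given as CPM, the counts of a gene per 1000000 counts of the library after TMM scaling. Values of single libraries are listed in the order of replicates 1, 2 and 3. A positive log2 fold change means a higher level in mutants, and 16152 genes were tested by the quasi-likelihood method of edgeR. The p-values measure the spread between these pools, which may in part be technical.

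Red blood cells arise in the marrow from nucleated erythroblasts, which expel the nucleus and leave as reticulocytes that still hold globin mRNA. GATA1 and KLF1 switch on the genes of this programme, ALAS2 starts haem synthesis, and the globins fill the cell with haemoglobin. SLC4A1, also known as band 3, exchanges chloride for bicarbonate and anchors the membrane to the spectrin skeleton, and a shorter form of it serves acid-secreting cells of the kidney. The IVD is largely without vessels at its core, with blood supply at its rim and in the neighbouring vertebral bone. In these bulk libraries, a change in the number of cells of a type and a change in RNA per cell cannot be told apart.

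The disc identity of the tissue was measured with its own markers. Col2a1, the main collagen of cartilage, ranged from 62708.2 to 124063 CPM, and T, the notochord factor of the nucleus pulposus, ranged from 130 to 450 CPM, while Noto, another notochord factor, had 1 count in 1 library and none in the others. The deleted gene is listed by its older symbol Gpr126. It was at 124, 108 and 94.3 CPM in controls and at 138, 124 and 106 CPM in mutants (log2 fold change 0.17, SE 0.18, edgeR's adjusted p = 0.849). Reads from outside the deleted exons also count toward this value.

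The upstream sequences are shown because these genes are read by shared erythroid factors and most of their levels followed each other from library to library. RefSeq windows on GRCm38.p6 were matched for 6 members. Slc4a1 was not matched. The bases before both the RefSeq start site and the GENCODE gene start are printed 5′ to 3′ on the strand of the gene for 4 members, and capitals mark GATAA or its reverse complement TTATC, the core letters bound by GATA factors. They lie at chr11:32296242-32296488 for Hba-a2, chrX:150547167-150547374 for Alas2, chr17:40810899-40811125 for Rhag and chr8:84901732-84901927 for Klf1, all on the plus strand.
Hba-a2: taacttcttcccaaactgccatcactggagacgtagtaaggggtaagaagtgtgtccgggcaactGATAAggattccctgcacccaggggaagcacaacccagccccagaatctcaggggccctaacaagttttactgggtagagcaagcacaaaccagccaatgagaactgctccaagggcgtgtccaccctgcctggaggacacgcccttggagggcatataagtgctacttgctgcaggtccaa
Alas2: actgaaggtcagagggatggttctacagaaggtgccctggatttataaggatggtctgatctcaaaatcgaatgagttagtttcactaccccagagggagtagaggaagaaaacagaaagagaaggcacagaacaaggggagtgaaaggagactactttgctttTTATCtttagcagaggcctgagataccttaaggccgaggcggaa
Rhag: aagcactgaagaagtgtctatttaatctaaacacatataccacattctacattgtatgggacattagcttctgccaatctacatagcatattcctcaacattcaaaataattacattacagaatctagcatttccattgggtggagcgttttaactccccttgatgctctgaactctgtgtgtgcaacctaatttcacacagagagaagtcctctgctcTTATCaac
Klf1: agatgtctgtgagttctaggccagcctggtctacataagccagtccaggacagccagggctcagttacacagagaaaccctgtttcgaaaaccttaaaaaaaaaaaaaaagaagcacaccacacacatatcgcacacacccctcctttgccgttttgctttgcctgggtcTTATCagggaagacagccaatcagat

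In the 250 bases before the RefSeq start site, GATAA was found on either strand in 5 of the 6 members, compared with 22.58% of 32851 such windows of all genes. It began 182 and 185 bases before the start site in Hba-a1 and Hba-a2, 86 bases before it in Alas2, 80 in Klf1 and 31 in Rhag. The longer form AGATAA, searched first, was found in 1 of the 6 members, Alas2, and in 9.99% of all windows; GATAA lies inside it and was searched after that result was seen. CCNCNCCC, the letters of a CACC box such as KLF1 binds, was found in 2 of the 6, Alas2 and Gata1, and in 45.93% of all windows. In both genes every such match lies inside the gene as GENCODE bounds it, not before its start. A match gives letters only, not a bound site, and the copies Hba-a1 and Hba-a2 share their upstream sequence.

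Slc4a1 was the tested member with the largest log2 fold change between genotypes. It lies on chromosome 11 from 102348824 to 102366203, on the minus strand. Its level was 4.49, 1.11 and 1.88 CPM in controls and 15.4, 26.4 and 5.95 CPM in mutants. All 3 mutant libraries lay above all 3 controls, as was true of 5.45% of the genes tested. These values rest on 42, 10 and 24 counts in controls and 135, 323 and 56 counts in mutants. The mean was 15.9 ± 10.2 CPM for mutants and 2.49 ± 1.77 CPM for controls (SD, n = 3 libraries each).

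The log2 fold change of Slc4a1 was 2.68, or 6.40-fold, with an SE of 0.60 (edgeR's unadjusted p = 0.00114, adjusted p = 0.553, Benjamini-Hochberg over all genes tested). It had an unadjusted p under 0.05 in all 12 alternative fits, and the adjusted p ranged from 2.28e-05 to 0.999 over them. The adjusted p passed 0.05 with DESeq2 (log2 fold change 2.69, adjusted p = 0.00134) and with edgeR when low genes were kept (2.70, adjusted p = 2.28e-05). The log2 fold change was 3.40 without control replicate 1 and 2.11 without mutant replicate 2.

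**Figure D1:**
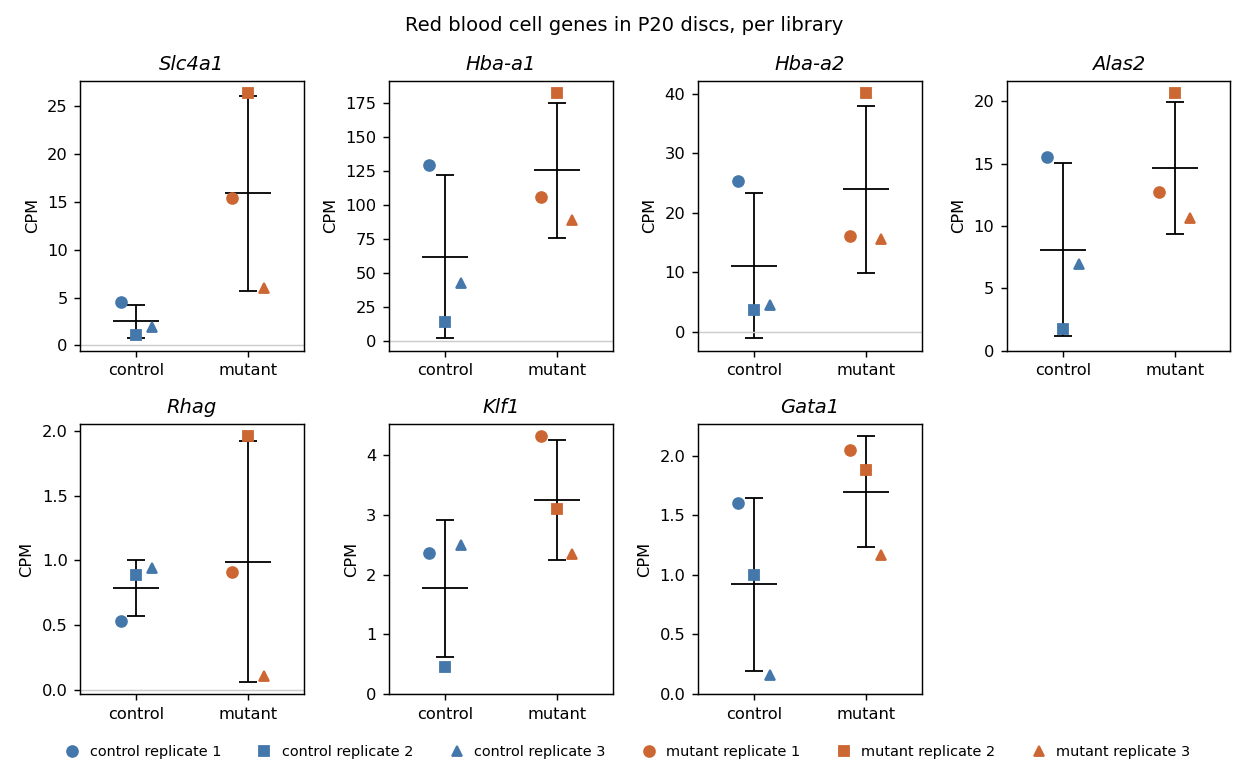
CPM of each red blood cell gene (linear axes) in the 3 control and 3 mutant libraries, with 1 point per library, a horizontal bar at the mean and whiskers of 1 SD. Among the members, only for Slc4a1 do the 3 mutant points, from 5.95 to 26.4 CPM, lie above the 3 control points, and control replicate 2 is the lowest control for Slc4a1, both globins, Alas2 and Klf1.

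The alpha globin genes, which encode a subunit of haemoglobin, are the members with the most counts. Hba-a1 lies on chromosome 11 from 32283511 to 32284465, and was at 129, 13.9 and 42.9 CPM in controls and at 106, 182 and 88.7 CPM in mutants. Control replicate 1 lay above mutant replicates 1 and 3, so that the groups overlapped, and control replicate 2 was lowest by a wide margin. The log2 fold change came to 1.02 (SE 0.61, edgeR's unadjusted p = 0.124, adjusted p = 0.749). Hba-a2, on the same chromosome from 32296489 to 32297298, was at 25.3, 3.66 and 4.46 CPM in controls. In mutants it was at 16.2, 40.1 and 15.5 CPM. The order of its libraries was close to that of Hba-a1, and control replicate 1 again lay among the mutants (log2 fold change 1.12, SE 0.66, edgeR's unadjusted p = 0.12).

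The globin copies are not fully separate measurements. Of the 455 windows of 100 bases in the Hba-a2 transcript, 74.5% occur unchanged in the Hba-a1 transcript, and how reads that fit both were counted is not given in the sources used here. With the counts of both genes summed, the log2 fold change was 1.03 (SE 0.61, edgeR's unadjusted p = 0.122). Hbb-bs and Hbb-bt, the adult beta globin genes, had log2 fold changes of 0.73 (SE 0.61) and 0.98 (SE 0.64), and their groups overlapped. Both had an unadjusted p under 0.05 with limma-voom, with low genes kept and without control replicate 1. Hbb-bs ranged from 16.7 to 144 CPM in controls and from 78.8 to 143 CPM in mutants. The embryonic globin genes Hba-x, Hbb-bh1 and Hbb-y had 0 counts in every library.

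Alas2, the erythroid enzyme that makes the first product of haem synthesis, lies on chromosome X from 150547375 to 150570638. It was at 15.5, 1.78 and 6.96 CPM in controls and at 12.7, 20.6 and 10.6 CPM in mutants. As for the globins, control replicate 1 lay above mutant replicates 1 and 3 and control replicate 2 was lowest. The log2 fold change came to 0.86 (SE 0.57, edgeR's unadjusted p = 0.162, adjusted p = 0.78). It was 0.40 without control replicate 2, 1.74 without control replicate 1 (unadjusted p = 0.00588) and 1.64 with limma-voom (unadjusted p = 0.016). Its last exon overlaps Apex2 on the other strand, and with the strand setting not given, reads there can belong to either gene. Apex2 had a log2 fold change of 0.55 (SE 0.23).

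Rhag, on chromosome 17 from 40811126 to 40840754, encodes a membrane glycoprotein of the Rh complex and was too low to be tested. It had 5, 8 and 12 counts in controls and 8, 24 and 1 counts in mutants, so that mutant libraries were both the highest and the lowest. The mean was 0.787 ± 0.22 CPM for controls and 0.992 ± 0.929 CPM for mutants (SD, n = 3 each, two-sided exact permutation p = 0.8, where 0.1 is the smallest possible).

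The erythroid transcription factor genes were low. Klf1, on chromosome 8 from 84901928 to 84905291, was at 2.35, 0.444 and 2.502 CPM in controls and at 4.32, 3.10 and 2.34 CPM in mutants. Mutant replicate 3 lay below control replicates 1 and 3 (log2 fold change 0.86, SE 0.64, edgeR's unadjusted p = 0.208). Gata1, on chromosome X from 7959260 to 7978071, was at 1.61, 0.999 and 0.156 CPM in controls. In mutants it was at 2.05, 1.88 and 1.17 CPM. It reached the level of the filter in 1 control and 3 mutant libraries. Its lowest library was control replicate 3, with 2 counts, where Klf1 had 32 (log2 fold change 0.91, SE 0.78, edgeR's unadjusted p = 0.27). The log2 fold change of Gata1 was 1.63 without control replicate 1 and 0.39 without control replicate 3.

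With edgeR, 0 of the 6 members tested passed an adjusted p of 0.05, beside 0.00619% of all genes, and 1, Slc4a1, had an unadjusted p under 0.05, compared with 7.21% of all genes. DESeq2 gave 1 member at an adjusted p under 0.05, Slc4a1, beside 58 of 16152 genes, and limma-voom gave 0 members and 0 genes. In 0 of the 6 were all mutant libraries below all controls, beside 5.96% of all genes. All 6 had a positive log2 fold change, as did 48.4% of all genes, and their median was 0.96 beside -0.01 for all genes tested. Without control replicate 1, the members with an unadjusted p under 0.05 were 4, namely Slc4a1, Hba-a1, Hba-a2 and Alas2, and in that fit 2427 of 17164 genes were under 0.05. The log2 fold change of Hba-a1 was then 2.16, and without control replicate 2 it was 0.55. That of Hba-a2 was 2.58 without control replicate 1, and without mutant replicate 2 it was 0.52. The 5 members other than Slc4a1 were positive in every fit run, including each with 1 library left out, at 0.39 or more.

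Per kilobase of exon, Hba-a1 was the most abundant member in control IVDs, at 76.3 ± 73.8 CPM per kilobase, followed by Hba-a2 at 16.7, Alas2 at 3.36, Klf1 at 1.15, Slc4a1 at 0.51, Gata1 at 0.377 and Rhag at 0.337. The ranges of all neighbours in this order overlapped over the controls, although within each control library Hba-a1 lay above Hba-a2 and Hba-a2 above Alas2. In mutant IVDs Hba-a1 was at 155 ± 61.2 CPM per kilobase and Hba-a2 at 35.9, and below them came Alas2 at 6.11, Slc4a1 at 3.25 and Klf1 at 2.13. In the mutant order, the ranges of Hba-a1 and Hba-a2, of Hba-a2 and Alas2 and of Klf1 and Gata1 did not overlap. The range of Slc4a1 overlapped those of Alas2 and Klf1, and Alas2 lay above Slc4a1 within each mutant library, while Klf1 lay above Slc4a1 in mutant replicate 3.

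Across the 6 libraries the levels of most members followed each other. The log2 CPM of Alas2 and Hba-a1 had a Pearson correlation of 0.993, and that of Hba-a1 and Hba-a2 was 0.941. Slc4a1 was less close to them, with 0.868 to Hba-a1, 0.873 to Hba-a2 and 0.834 to Alas2. Klf1 had 0.892 to Alas2, 0.857 to Hba-a1, 0.761 to Slc4a1 and 0.65 to Hba-a2. Gata1, the lowest member tested, had 0.206 to Klf1, 0.42 to Alas2, 0.519 to Hba-a1, 0.674 to Slc4a1 and 0.729 to Hba-a2. These describe 6 libraries that include both genotypes, and share the depth and makeup of each library.

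Because red cell genes varied as a group, Slc4a1 was also compared with them within each library, which needs no scaling between libraries. Against the summed counts of Hbb-bs and Hbb-bt, Slc4a1 made up 2.63%, 5.59% and 4.21% in controls. In mutants it made up 11.2%, 13.2% and 6.11%. The mutant shares were all above the control shares, but only mutant replicate 2 had a 95% exact binomial interval (11.9% to 14.7%, counting error only) clear of every control. The interval of mutant replicate 1 (9.44% to 13.1%) overlapped that of control replicate 2 (2.71% to 10.03%, from 10 counts of Slc4a1). That of mutant replicate 3 (4.65% to 7.86%) overlapped those of control replicates 2 and 3. The log2 ratio was higher by 1.38 in mutants, or 2.61-fold (two-sided exact permutation p = 0.1, the smallest that 3 libraries against 3 can give). The comparisons with the beta globins, with Alas2 and with membrane genes without Ank1 and Sptb were chosen after values were seen.

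Against Alas2, the log2 ratio of Slc4a1 was higher by 1.38 in mutant IVDs, and mutant replicate 3 (-0.84) was lower than control replicate 2 (-0.68) (p = 0.2 from the exact permutation test). Against the summed counts of the other members the difference was 1.25, and mutant replicate 3 (-4.32) was again lower than control replicate 2 (-4.29). Against 6 other membrane and skeleton genes of the red cell (Rhd, Kel, Xk, Ank1, Sptb and Slc14a1), the difference was 2.29, with all mutant libraries above all controls (p = 0.1 from the exact permutation test). Of that denominator 55.0% of counts were from Sptb and 25.2% from Ank1, which muscle and other tissues also express. Without both genes the difference was 2.25 (p = 0.1 from the exact permutation test). Across controls this smaller denominator had 109, 102 and 151 counts and the full one 650, 550 and 662. The beta globins had 1556, 169 and 546 there, a spread that neither denominator followed. Neither difference therefore takes that spread into account.

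**Figure D2:**
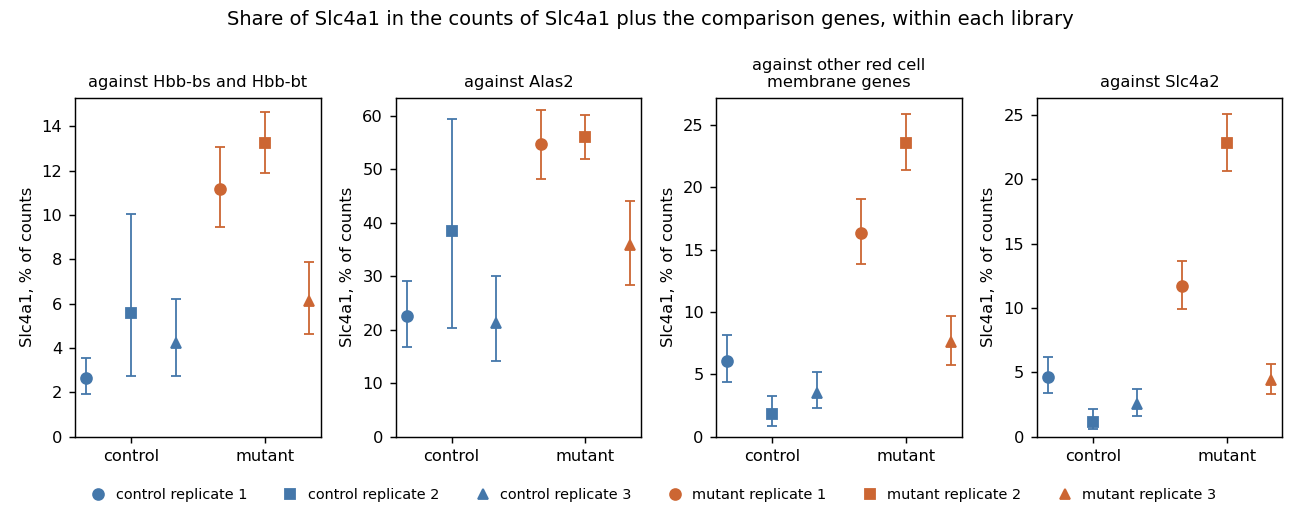
Counts of Slc4a1 as a percentage of the counts of Slc4a1 plus the named comparison genes in each library, with 95% exact binomial intervals for counting error. Against the beta globins the 3 mutant points, from 6.11% to 13.2%, lie above the 3 control points, and only mutant replicate 2 has an interval that meets no control interval.

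Slc4a1 was also set beside the other SLC4 bicarbonate transporters. Slc4a2, the anion exchanger of many cell types, averaged 86.9 ± 12.4 CPM for controls and 112 ± 20.8 CPM for mutants (log2 fold change 0.36, SE 0.20, edgeR's unadjusted p = 0.0971). The log2 ratio of Slc4a1 to Slc4a2 was higher by 2.31 in mutants, with an overlap of mutant replicate 3 and control replicate 1, at -4.45 and -4.36 (p = 0.2 from the exact permutation test). Slc4a3, an exchanger of excitable tissue, had a log2 fold change of 0.21 and Slc4a4, a sodium bicarbonate cotransporter, one of -0.76 (SEs 0.20 and 0.41). Slc4a7 and Slc4a8, which also carry sodium with bicarbonate, had -0.24 and 0.22. Of the 9 SLC4 genes tested, only Slc4a1 was higher at an unadjusted p under 0.05 and only Slc4a5, a bicarbonate cotransporter named after its values were seen, was lower (log2 fold change -1.36, SE 0.58), beside 2.89% of all genes higher and 7.21% in either direction.

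A wider set of 56 red cell genes without the members was then described, from lists of globins, haem synthesis and iron supply, membrane and skeleton, factors and receptors, and enzymes. Of 45 that were tested, 34 had a positive log2 fold change, beside 48.4% of all genes. At an unadjusted p under 0.05 with edgeR, 8 were higher and 0 lower. Of these 8, 3 (Kel, Hemgn and Trim10) reached the level of the filter, 1.02 CPM, in mutant libraries only, so that they had to differ to be tested. The other 5 of 42 stand beside 2.89% of all genes higher at that threshold. The median log2 fold change of the set was 0.22. Both this median and the 34 include Kel, Hemgn and Trim10, so neither is a test of the set. With edgeR or limma-voom 0 of its genes passed an adjusted p of 0.05, while Aqp1 did with DESeq2 and with edgeR when low genes were kept. Without mutant replicate 2 the count at an unadjusted p under 0.05 was 4, beside 1669 of 17095 genes. It was 5 without mutant replicate 1, beside 817 of 17179 genes. The 4 include Hemgn, and the 5 include Kel and Hemgn.

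Kel, Hemgn and Trim10 mark erythroid cells closely, and their values are given as a description because of how they passed the filter. Kel, the Kell blood group protease of the red cell surface, had 3, 0 and 4 counts in controls and 13, 42 and 10 counts in mutants. Hemgn, a nuclear protein of blood precursors, had 1, 2 and 4 counts in controls and 17 in each mutant library. Trim10, needed for terminal red cell formation, had 8, 2 and 11 counts in controls and 32, 34 and 14 in mutants. Genes of the same lists also went the other way. Trim58, a ubiquitin ligase of late erythroblasts below the filter, had 1, 2 and 3 counts in controls and 0, 1 and 0 in mutants, and its CPM was lower in all mutants than in all controls. Car1, a carbonic anhydrase abundant in red cells, had a log2 fold change of -0.45 (SE 0.71).

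Other genes of the red cell membrane and skeleton differed in whether the groups overlapped. Cldn13, a claudin of erythroid cells, was below the filter, with 0, 6 and 9 counts in controls and 12, 26 and 8 in mutants. Its CPM was higher in all mutants than in all controls, as was that of Add2, a skeleton gene with a log2 fold change of 0.88 (SE 0.56, edgeR's unadjusted p = 0.144). Ermap, an erythroid adhesion receptor, was below the filter, with 9, 0 and 10 counts in controls and 28, 76 and 4 in mutants, so that mutant replicate 3 lay below control replicates 1 and 3. Ank1, erythroid ankyrin, had a log2 fold change of -0.28 with an SE of 0.26. Rhd, the partner of Rhag, had 0.12 (SE 0.29). The abundant skeleton genes Epb4.1, Tmod1 and Gypc had 0.10, -0.31 and 0.33.

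The other 5 of the 8 higher genes are used by many cells. Sptb, beta spectrin, averaged 29.6 ± 4.44 CPM for controls and 47.1 ± 5.08 CPM for mutants (log2 fold change 0.67, SE 0.18, edgeR's unadjusted p = 0.00334), with all mutants above all controls. The gene overlaps Plekhg3 on the other strand, and the strand setting is not given. Aqp1, a water channel also of endothelium and cartilage, averaged 90.5 ± 29.1 CPM for controls and 165 ± 5.72 CPM for mutants (log2 fold change 0.87, SE 0.23, unadjusted p = 0.00353), with no overlap. Car2, a carbonic anhydrase also of osteoclasts, had 1.08 (SE 0.35, unadjusted p = 0.0105). Slc25a37, the mitochondrial iron importer mitoferrin, had 0.68, and Cpox, a late enzyme of haem synthesis, 0.64 (unadjusted p = 0.0301 and 0.0426 from edgeR). Slc25a37 and Cpox were no longer under 0.05 when control replicate 3 or either of mutant replicates 1 and 2 was left out, nor was Cpox without control replicate 2 or with limma-voom. The most abundant haem and iron genes, which most cells use, had an unadjusted p over 0.05. Their log2 fold changes were 0.22 for Ppox and -0.07 for Urod, enzymes of haem synthesis, 0.18 for the mitochondrial transporter Abcb10, -0.04 for the glycine carrier Slc25a38 and 0.18 for the iron reductase Steap3.

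Of 13 erythroid factor and receptor genes, 9 were tested, and all 9 had a positive log2 fold change, as did 48.4% of all genes. Zfpm1 had 0 counts in every library, and Gfi1b, Trim58 and Tspo2 were below the filter. Tal1 and Lmo2, partners of GATA1, had log2 fold changes of 0.23 (SE 0.51) and 0.66 (SE 0.38). Nfe2, a globin activator, had 1.17 (SE 0.76), and Epor, the erythropoietin receptor, 0.91 (SE 0.70). Nfe2 had 10, 6 and 9 counts in controls and 15, 41 and 4 in mutants, and its CPM was lowest in mutant replicate 3. It reached the level of the filter in 1 control and 2 mutant libraries. Ldb1, the most abundant of the list, had 0.09 (SE 0.25). Hemgn and Trim10 passed the filter through the mutants alone. Of the 7 other tested factor and receptor genes, 0 had an unadjusted p under 0.05 with edgeR or DESeq2. Over all genes these were 7.21% with edgeR and 1227 of 16152 with DESeq2, so a count of 0 says little for a list of this size. Lmo2 was under 0.05 with limma-voom (beside 1476 of 16152 genes) and without control replicate 1 (beside 2427 of 17164 genes). Tfrc, which takes up transferrin iron in dividing cells and most strongly in erythroblasts, had -0.17 (SE 0.17). Among the most abundant red cell enzymes and related genes, the log2 fold change was 0.02 for Gpx1, 0.12 for Prdx2, 0.24 for Bnip3l, 0.14 for Cat, 0.14 for Bpgm and 0.01 for Blvrb, each with an unadjusted p over 0.05.

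**Figure D3:**
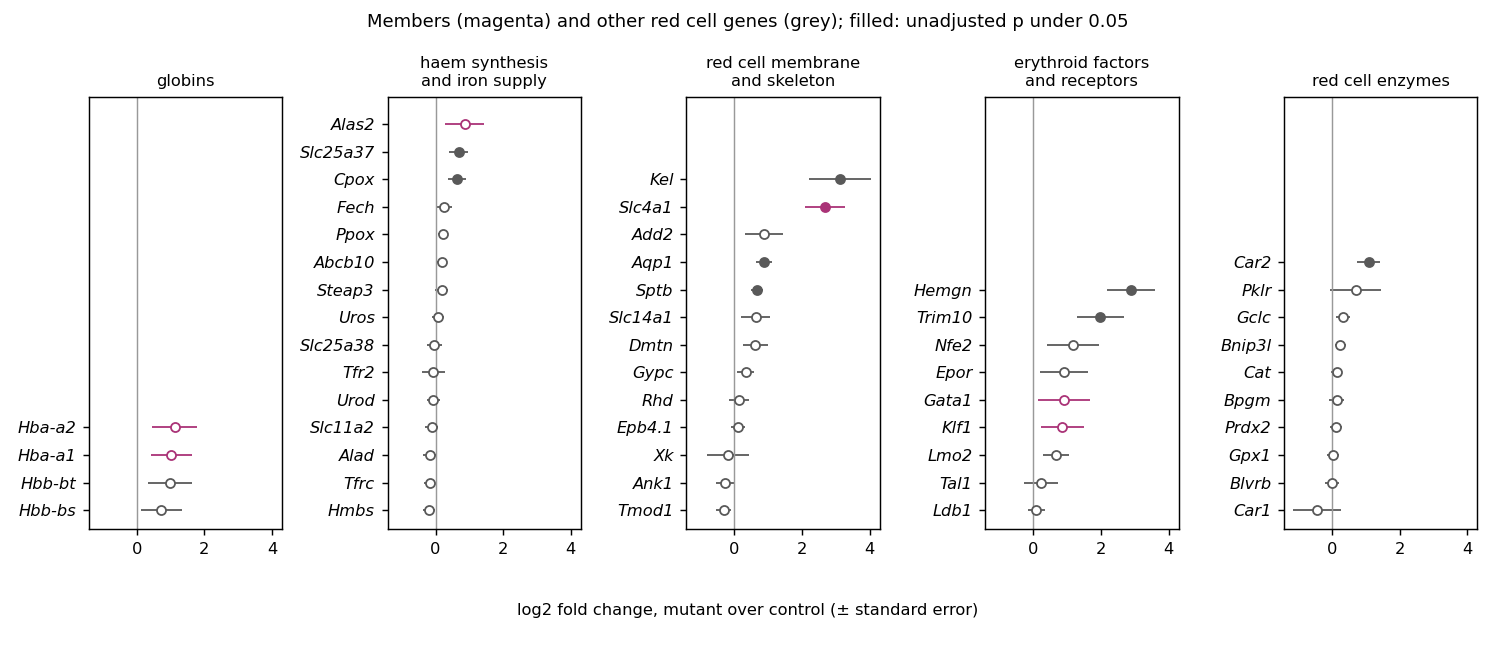
Log2 fold change of mutant over control, with its standard error, for the tested red cell genes grouped by role, with members in magenta and filled points at an unadjusted p under 0.05. Slc4a1, at 2.68, lies to the right of the globins and Alas2. So do Kel, Hemgn and Trim10, which passed the filter through the mutants alone, and Nfe2, at 1.17, whose groups overlapped. Abundant haem genes such as Ppox and Urod lie between -0.07 and 0.22.

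Markers of other cells of blood, vessel and bone were read in the same libraries. The summed level of the 7 red cell members was 179, 22.8 and 59.8 CPM in controls and 157, 276 and 124 CPM in mutants. The 14 neutrophil genes summed to 18.0, 39.2 and 70.0 CPM in controls and 180, 64.7 and 38.4 CPM in mutants, an order of libraries unlike that of the red cell genes. All 12 neutrophil genes tested had a positive log2 fold change (median 1.01), beside 48.4% of all genes. At an unadjusted p under 0.05, 2 were higher, beside 2.89% of all genes, namely Mpo and Prtn3, both made in immature marrow cells. Mpo, myeloperoxidase, was at 2.25, 4.55 and 5.47 CPM in controls and 30.5, 11.8 and 12.7 CPM in mutants (log2 fold change 2.15, SE 0.44, edgeR's unadjusted p = 0.000661). Elane and Ctsg, also made in immature marrow cells, overlapped between the genotypes, with log2 fold changes of 1.76 and 1.44. So did S100a8 and S100a9, of mature neutrophils, with 1.02 and 0.99.

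The 8 endothelial genes summed to 278, 152 and 173 CPM in controls and to 221, 243 and 250 CPM in mutants. Control replicate 1 was highest and control replicate 2 lowest, as among the controls for the members. Pecam1 and Cdh5, adhesion molecules of endothelium, had log2 fold changes of 0.33 (SE 0.26) and 0.48 (SE 0.27). Cldn5, a tight junction gene, was lower in all mutants than in all controls, with -0.40 (SE 0.20), and Tek, an angiopoietin receptor, had -0.06. Of 8 endothelial genes 0 had an unadjusted p under 0.05 with edgeR, beside 7.21% of all genes, so that a count of 0 says little for lists of this size. Platelet and megakaryocyte genes summed to 31.8 to 48.4 CPM in controls and 28.2 to 40.3 CPM in mutants, with 0 of 4 tested genes at that threshold. The largest part was Gp1bb, which overlaps the gene Sept5, at a mean of 24.4 CPM in controls and 18.3 CPM in mutants. Platelet genes Gp9, Gp5 and Gp6 were at 0 in 2 or more libraries. B lymphocyte genes summed to 54.5 to 86.0 CPM in controls and 57.8 to 97.4 CPM in mutants, mostly from Ebf1, which fat and bone precursors also express, and Rag1 had 0 counts throughout.

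Macrophage genes summed to 59.0 to 79.9 CPM in controls and 62.1 to 121 CPM in mutants. Of 9 tested, 1 was higher at an unadjusted p under 0.05, beside 2.89% of all genes. It was Cd68 (log2 fold change 0.74, edgeR's unadjusted p = 0.0401), and in every other tested gene of the list the groups overlapped. Of the 9, 7 had a positive log2 fold change, beside 48.4% of all genes. The 2 negative ones were Emr1, at -0.56, and Vcam1, at -0.09. Genes of blood progenitors summed to 44.3 to 47.8 CPM in controls and 46.0 to 55.9 CPM in mutants, with 0.23 for Myb and -0.64 for Kit. The largest part of that sum was Cd34, at a mean of 27.2 CPM in controls and 30.9 CPM in mutants. Of 8 bone genes 3 had an unadjusted p under 0.05, all higher in mutants, and of 10 cartilage genes 3 did, all lower, beside 467 higher and 697 lower of the 16152 genes tested. Bglap, the osteoblast product osteocalcin, was at 6.53, 5.33 and 5.63 CPM in controls and 18.0, 25.5 and 10.9 CPM in mutants (log2 fold change 1.64, SE 0.32, edgeR's unadjusted p = 0.000415). The others were Bglap2, at 1.31, and Col1a1, at 1.05, while Sp7, an osteoblast factor, had -0.41. The order of the mutant libraries differed between the 3 genes, with replicate 2 highest for Bglap, replicate 1 for Bglap2 and replicate 3 for Col1a1. What part marrow, blood, vessel or bone in the dissected tissue had in the values of Slc4a1 and the other members was not tested.

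**Figure D4:**
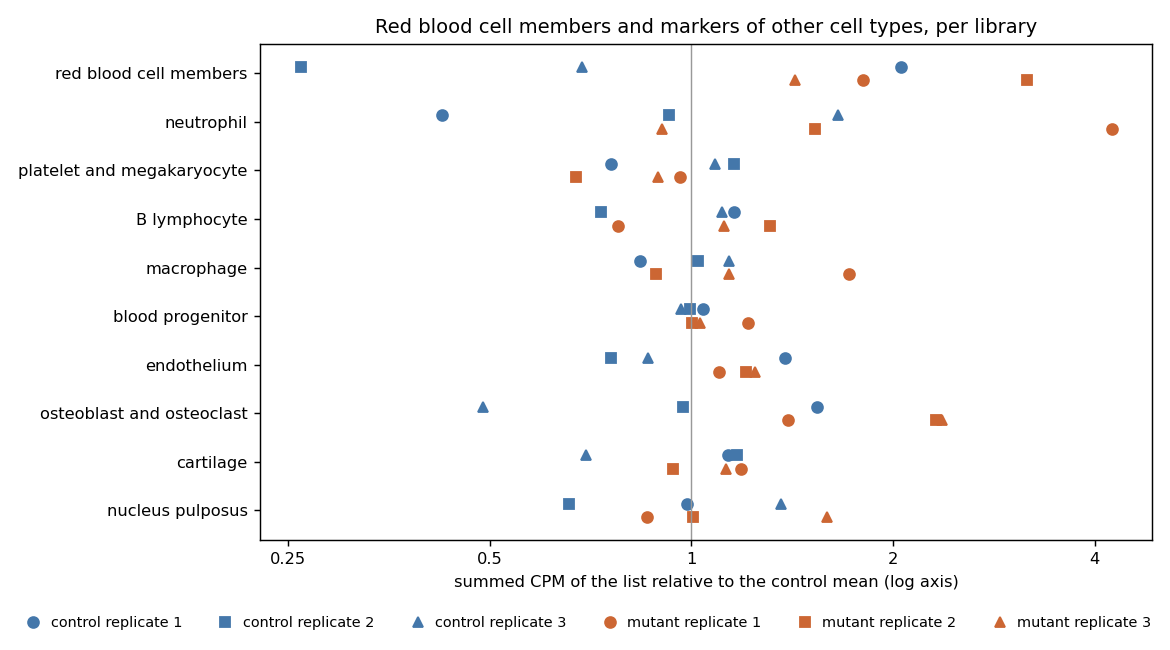
Summed CPM of each gene list in each library divided by the mean of the 3 controls, on a log axis, with 1 point per library. The red cell members spread from 22.8 to 179 CPM within the controls alone, and mutant replicate 1 stands highest for neutrophil genes while mutant replicate 2 stands highest for the red cell members.

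The genes whose pattern over the 6 libraries was most like that of Slc4a1 were sought among all genes tested outside the members, by Pearson correlation of log2 CPM. The 10 closest, at 0.971 to 0.992, were Slfn9, Tmem87b, Heatr5b, Ago2, Gpm6b, Car2, Igf1, Ap1g1, Dusp11 and Ap2a2. Of these only Car2 is in a red cell list. Igf1, a growth factor, was at 39.9, 22.0 and 30.0 CPM in controls and 65.1, 73.2 and 54.2 CPM in mutants, and having been chosen for its likeness to Slc4a1 its difference between genotypes is not tested. Closest to the mean of the members were Bcor, Ap2a2, Gm53, Cd36, S1pr1, Hist2h2be, Nbr1, Arhgap29, Rhoq and Opa1, at 0.979 to 0.991. Cd36, a fatty acid receptor of capillary endothelium and fat, was at 32.7, 12.9 and 20.2 CPM in controls and 33.3, 38.1 and 29.0 CPM in mutants. With 6 libraries and 16152 genes, correlations of this size are a description only.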

How the data were processed

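Whole IVDs of 3 control and 3 mutant pools at postnatal day 20 were profiled. The authors deposited raw counts per gene symbol for each library. The methods describe trimming with Cutadapt and mapping with HISAT2 to GRCm38.88, while the submitters' processing notes name STAR 2.5.3a, HTSeq and DESeq2, and the closing lines of the files are those of htseq-count. The strand setting is not given in the sources used here, and reads placed at several sites are listed as 0 in every file. Lines that name no gene were left out, and 40.4% to 44.2% of reads were on genes. A deposited table of the authors' own comparison, with fold changes and p-values, was not used.

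Counts were tested with edgeR 4.0.16 in R 4.3.3 (TMM, filterByExpr with a count minimum of 10, quasi-likelihood test, Benjamini-Hochberg adjustment over 16152 genes). Standard errors are the size of the log2 fold change divided by the square root of F. Single values were compared with two-sided exact permutation tests over libraries. Alternatives were RLE size factors, no filter, DESeq2 1.42.0, a block for the replicate number, limma-voom (limma 3.58.1) with sample quality weights, library totals without the members and other globin genes, and each library left out. The fits were tested on simulated data.

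The members and gene lists were chosen with earlier results of these data known. The rule named all members, the up to 6 most abundant tested genes of each list, wider red cell genes at an unadjusted p under 0.05, and the 10 genes closest in pattern; not all of these are described. Other named genes were chosen after their values were seen. Older symbols were matched for 3 list genes. Gene positions come from GENCODE M21 (GRCm38). Nothing beyond the pooling of 2 to 3 mice says how the libraries of a group differ in origin, and precision from reads without molecular identifiers covers counting error only. Some genes are not reported here and were left out of the gene lists and ratios.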

Additional observations from a re-analysis of the deposited data

How the results depend on the processing

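The direction of Slc4a1 and of the 5 other tested members held in every alternative. The log2 fold change of Slc4a1, 2.68, was 2.70 without the filter on low counts and 2.69 with DESeq2, past an adjusted p of 0.05 in both, and 2.11 to 3.40 with 1 library left out. Members at an adjusted p under 0.05 were 0, and 1 without the filter and 1 with DESeq2, and 0 with any 1 library left out. Members at an unadjusted p under 0.05 were 1, and 4 without the filter (beside 2276 of 26418 genes), 4 with limma-voom (beside 1476 of 16152 genes) and 1 to 4 with 1 library left out. The wider red cell genes at that threshold were 8, and 4 to 12 with 1 library left out. The 4 were without mutant replicate 2 (beside 1669 of 17095 genes) and the 12 without control replicate 1 (beside 2427 of 17164 genes). Kel, Hemgn and Trim10, which passed the main filter through the mutants alone, are among the 8 and the 12. Hemgn is also among the 4, so these counts are not a test of the set. Over all genes, 1 passed an adjusted p of 0.05, compared with 245 without the filter, 58 with DESeq2, 0 with limma-voom, 0 with the replicate block, and 0 to 31 (without control replicate 1) with 1 library left out. With 1 library left out, the log2 ratio of Slc4a1 to other membrane genes differed by 1.81 to 2.81, and that to Slc4a2 by 1.67 to 3.02.

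Deviations from the group means correlated at 0.159, -0.132 and 0.101 between control and mutant libraries of equal replicate number 1, 2 and 3. Between libraries of unequal number they correlated at -0.265 to 0.179. With 3 libraries in each group, these values cannot show whether the numbers pair the libraries. With the number as a replicate block, the members at an unadjusted p under 0.05 were 1, Slc4a1, at a log2 fold change of 2.55 (edgeR's adjusted p = 0.48). Hba-a1 and Alas2 had 1.40 and 1.10. The paired difference of the log2 ratio to membrane genes was 2.29, and exact sign flips of 3 pairs allow no p under 0.25. Rhag, Gata1, Klf1, Kel and Hemgn had under 50 counts in every library, which limits the precision of their values.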
